A study of Mus musculus with 2 samples.

Results

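The heat shock protein and chaperone genes followed here number 10, and they were measured in single cells of the mediastinal lymph node, the node that drains the lung, of mice with ovalbumin-induced asthma. They were Hspa8, Hspa1a, Hspa1b, Hsp90aa1, Hsp90ab1, Hspd1, Hspe1, Hsph1, Dnaja1 and Dnajb1, that is 10 of the 31053 genes in the count matrices, and all 10 symbols were found once in both gene lists. The genes were chosen by their symbols, and the list was selected on measured values of these same cells: their level by lineage, their level in cycling cells, and the log2 ratio of counts per 1000000 UMIs (CPM) between the libraries. These values are therefore given as a description, with no test.

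All mice were WT C57/B6J, received 50 µg ovalbumin with alum on days 0 and 7, were challenged through the nose from day 14 to day 16 and were killed on day 17. Mice of the whole study were 5 to 13 weeks old. The library labelled OVA came from such mice without butyrate and the library labelled C4 from such mice given butyrate, a short-chain fatty acid that gut bacteria make. Butyrate went into drinking water or was given by gavage in different experiments of the study, and the sources used here do not say which for these mice. In each library the cells of 4 mice were pooled, so that each condition was 1 library with no replicate, and butyrate cannot be told apart from anything else that differed between the pools, such as the animals, the handling or the run.

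Chaperones bind unfolded or newly made proteins and help them reach or regain their shape. HSP70 proteins (Hspa8, Hspa1a, Hspa1b) hold short exposed stretches of a protein and let them go in a cycle driven by ATP; J proteins (Dnaja1, Dnajb1) bring clients to them and start ATP hydrolysis, and HSP110 (Hsph1) exchanges the nucleotide. HSP90 proteins (Hsp90aa1, Hsp90ab1) act later, on kinases, steroid receptors and other clients, and HSP60 with HSP10 (Hspd1, Hspe1) form the folding chamber of the mitochondrial matrix. Heat and other protein damage free heat shock factor HSF1, which binds repeats of GAA and its complement TTC, called heat shock elements; Hspa1a, Hspa1b, Hsph1, Dnaja1 and Dnajb1 are known as inducible genes of this response, while Hspa8 and Hsp90ab1 are made at all times. When lymphocytes are activated and divide, the demand for folding rises with protein synthesis.

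On the mouse build GRCm38 (mm10, the build of the files) the genes lie apart except for 2 neighbouring sets, by the GENCODE M21 annotation. Hspa1a (ENSMUSG00000091971, chr17:34969190-34972156, minus strand) and Hspa1b (ENSMUSG00000090877, chr17:34956436-34959238, minus strand) are protein-coding genes of 1 exon each, whose starts are 12918 bases apart. They are near-identical copies, so it is uncertain how the authors' counting split or left out reads that match both. Reads left out would lower both levels, and each of their values is best read beside that of the other. Hspd1 (ENSMUSG00000025980, chr1:55077835-55088243, minus strand, 12 exons) and Hspe1 (ENSMUSG00000073676, chr1:55088132-55091307, plus strand, 4 exons) start head to head and overlap by 112 bases. The others are Hspa8 (ENSMUSG00000015656, chr9:40800984-40810087), Hsph1 (ENSMUSG00000029657, chr5:149614287-149636376), Dnaja1 (ENSMUSG00000028410, chr4:40722150-40737149), Dnajb1 (ENSMUSG00000005483, chr8:83608193-83612653), Hsp90aa1 (ENSMUSG00000021270, chr12:110690605-110702728) and Hsp90ab1 (ENSMUSG00000023944, chr17:45567775-45573271).

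RefSeq promoter windows (GRCm38.p6, 250 bases before to 50 bases after a start) were at hand for 7 of the 10 genes, in 12 windows. They were searched for the heat shock element units GAANNTTC and TTCNNGAA, which may overlap each other and each of which reads the same on both strands. At least 1 match was found for 6 of these 7 genes (Hspa1a, Hspa1b, Hspd1, Hspe1, Hsph1 and Dnaja1), while both windows of Dnajb1 held none. Of all 27025 genes with a window, 17% had a match, and of all 32851 promoter windows 15.1% held one. Both units overlapped to give at least 3 repeats in a row for Hspd1, Hspe1 and Hsph1, as for 0.662% of all genes with a window. The upstream sequences of Hspa1a (chr17:34972157-34972406) and Hspa1b (chr17:34959239-34959488) are shown because they differ at only 3 of 250 bases although the genes are counted apart. Both are read 5′ to 3′ on the minus strand, up to the base before the start, with the match, 104 bases before the start, in capitals.
Hspa1a: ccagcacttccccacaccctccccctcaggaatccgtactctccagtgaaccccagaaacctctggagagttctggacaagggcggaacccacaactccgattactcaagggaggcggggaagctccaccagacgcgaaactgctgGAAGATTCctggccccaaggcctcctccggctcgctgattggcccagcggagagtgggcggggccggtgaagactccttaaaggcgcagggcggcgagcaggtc
Hspa1b: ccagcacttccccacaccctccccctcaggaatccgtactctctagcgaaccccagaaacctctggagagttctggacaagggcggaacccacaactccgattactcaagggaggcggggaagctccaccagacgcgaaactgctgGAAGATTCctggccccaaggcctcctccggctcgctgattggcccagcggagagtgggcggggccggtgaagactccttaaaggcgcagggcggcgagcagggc

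Stretches of 30 bases around the matches are shown for 3 more genes, with matches in capitals, because Hsph1 and Dnaja1 had the lowest ratios between the libraries among the well-counted members and Hspe1, which like Hsph1 holds 3 matches in a window, did not. The stretches of Hsph1 (minus strand) are at chr5:149636351-149636380, before both of its RefSeq starts, and at chr5:149636280-149636309, after them. That of Hspe1 (chr1:55088053-55088082, plus strand) stands before its RefSeq start, and the same bases stand before 1 of the 2 RefSeq starts of Hspd1. That of Dnaja1 (chr4:40722333-40722362, plus strand) stands before 1 of its 3 RefSeq starts, and the windows of the other starts held no match. GENCODE M21 has transcripts with other starts, so that 26 of the 30 bases of the first Hsph1 stretch and all 30 of each of the others lie in annotated exons. A match describes the letters and is no evidence that a factor binds there.
Hsph1, before the start: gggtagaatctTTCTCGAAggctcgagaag
Hsph1, after the start: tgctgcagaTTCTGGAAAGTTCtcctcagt
Hspe1: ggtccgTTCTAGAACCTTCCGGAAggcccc
Dnaja1: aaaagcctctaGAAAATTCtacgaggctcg

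The deposited values were whole counts of unique molecular identifiers (UMIs), each marking 1 captured 3′ end, so that levels of different genes can be set side by side without a correction for length. OVA held 9681 cells and 59176459 UMIs and C4 held 8932 cells and 58381292 UMIs; after the filters 8774 and 8013 cells remained, with medians of 5075 and 5649 UMIs and of 3.73% and 3.92% mitochondrial UMIs. Among kept cells 22 barcodes occurred in both libraries. Cells were sorted into classes by UMIs of Cd79a, Cd3e, Cd4, Cd8a and Foxp3: 4128 and 3911 B cells, 864 and 763 CD4+ conventional T cells, 1445 and 1454 CD8+ T cells, and 137 and 131 Foxp3+ CD4+ T cells in OVA and C4. The Foxp3+ CD4+ class took T cells with a Foxp3 UMI and no Cd8a UMI, whether or not a Cd4 UMI was found. CD4+ conventional T cells had a Cd4 UMI and none of Cd8a or Foxp3. The classes held the markers that did not define them: Cd79b stood at 1707 and 1822 CPM in B cells and at no more than 31.0 CPM in the 3 T-cell classes, Cd8b1 at 936 and 965 CPM in CD8+ T cells, and Ikzf2 at 817 and 742 CPM in Foxp3+ CD4+ T cells. Ratios below are log2 of C4 over OVA with exact 95% intervals, which cover counting error and not the spread between cells, animals or libraries. They take every UMI as independent, so they are too narrow where few cells hold most of the UMIs.

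The 10 genes spanned more than 2 orders of magnitude in level, and the order was much the same in every lineage. Hsp90ab1 was the highest at 1844 CPM in B cells of OVA and 1760 CPM in those of C4, and it stayed between 1543 and 1795 CPM in the T-cell classes. Hspa8 came next, between 958 and 1429 CPM over the 4 lineages and both libraries. Hspe1, Hsp90aa1 and Dnaja1 formed a middle group between 319 and 671 CPM. Hspd1 lay between 146 and 199 CPM, Dnajb1 between 70.1 and 112 CPM and Hsph1 between 38.8 and 77.1 CPM. Hspa1a and Hspa1b were the lowest as counted, between 2.48 and 12.3 CPM, with the treatment of reads that match both copies uncertain. Within the middle group the order changed with lineage: Hspe1 and Hsp90aa1 did not differ beyond counting error in B cells of OVA (581 and 576 CPM), whereas Dnaja1 led both in CD4+ conventional T cells of OVA (637, 478 and 462 CPM for Dnaja1, Hspe1 and Hsp90aa1).

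**Figure D1:**
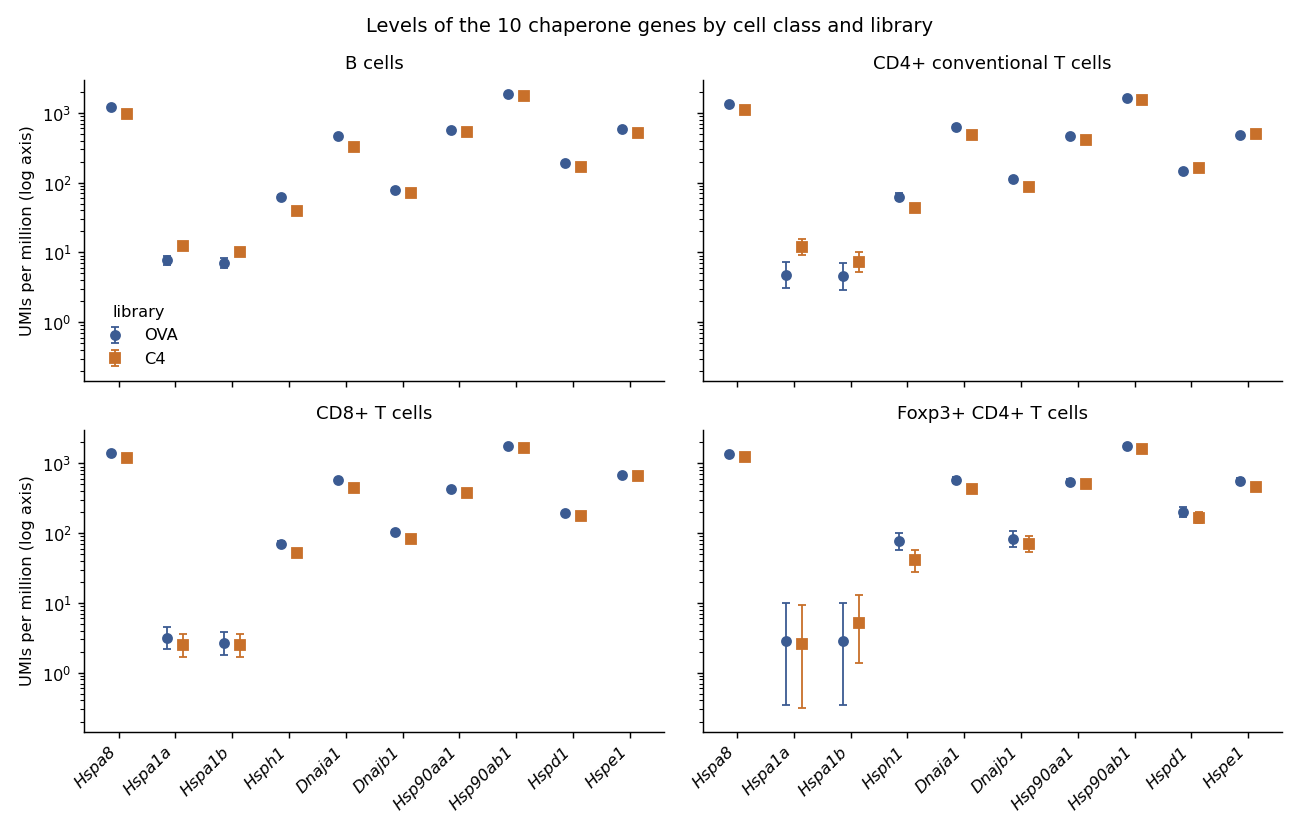
Level of each gene in UMIs for each 1000000 UMIs of the class (CPM, log axis) in 4 cell classes, with circles for OVA and squares for C4 and exact 95% Poisson intervals as bars. Hsp90ab1 and Hspa8 stand at the top in every class and Hspa1a and Hspa1b, at 2.48 to 12.3 CPM, at the bottom.

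UMIs of the inducible HSP70 genes were counted in few cells. In B cells of OVA, 73 of 4128 cells had a UMI of Hspa1a, and 80.7% of its 161 UMIs came from the 42 cells (1%) with the most, with 17 in a single cell. In B cells of C4, 113 of 3911 cells had one, the most in a cell was 11, and the top 1% of cells held 66.2% of the 260 UMIs. Hspa8 was spread evenly by comparison: 3989 of 4128 B cells of OVA had a UMI of it, and the top 1% of cells held 6.17% of them. Cells with 5 or more UMIs of Hspa1a and Hspa1b together numbered 11 of 4128 B cells in OVA and 17 of 3911 in C4. Those 11 and 17 cells had medians of 5754 and 5124 UMIs and of 3.72% and 4.08% mitochondrial UMIs, and they held 27.1% and 26.8% of the UMIs of the copies in B cells.

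In B cells detection of the copies went together, while only 4 to 15 cells with Hspa1a were found in CD4+ conventional or CD8+ T cells of a library. With every B cell thinned to 2000 UMIs, Hspa1b was found in 8 of the 39 OVA cells with Hspa1a (20.5%) and in 1.04% of those without, and in 8 of 64 (12.5%) and 1.59% in C4. Dnajb1 was found in 41.0% of OVA B cells with Hspa1a and in 14.4% of those without, and in 31.3% and 13.7% in C4. Reads of near-identical copies that are split between them would also give the first of these pairings, and the share of such reads was not tested. Pairs of more abundant members differed by a smaller factor: Dnaja1 was found in 56.1% of OVA B cells with Hspa8 and in 46.2% of those without. Hsp90ab1 was found in 91.1% of those with Hsp90aa1 and in 87.4% of those without, a share that left little room for a difference. Hsph1 was found in 13.5% of OVA B cells with Dnaja1 and in 7.57% of those without, and in 8.97% and 5.60% in C4.

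The lineages differed in which chaperones they favoured. Over B cells of the same library, CD4+ conventional T cells had more Dnaja1 (log2 0.44 in OVA and 0.57 in C4), Dnajb1 (0.49 and 0.31) and Hspa8 (0.13 and 0.17), and less Hsp90aa1 (-0.32 and -0.38) and Hsp90ab1 (-0.19 in both). In CPM of all UMIs, CD8+ T cells over B cells gave the same signs for these 5 genes, with 0.32 and 0.48 for Dnaja1, 0.24 and 0.33 for Hspa8 and -0.43 and -0.49 for Hsp90aa1, and they also had more Hspe1 (0.21 and 0.36) and Hsph1 (0.18 and 0.43). Hsp90ab1 was only at -0.07 and -0.09 in this comparison. In CPM without ribosomal, mitochondrial and immunoglobulin genes its median over the 10 members rose from 0.09 to 0.28 in OVA. In C4 the median rose from 0.15 to 0.38. That change moves all members alike, so the sign of Hsp90ab1 here depends on the denominator. Hspd1 and Hspe1, partners in one chamber, were lower in CD4+ conventional T cells than in B cells of OVA (-0.40 and -0.28), while in C4 their intervals included no difference (-0.14 to 0.08 for Hspd1 and -0.12 to 0.01 for Hspe1). Hspa1a, with 33 and 30 UMIs in CD8+ T cells, stood lower there than in B cells, at log2 -1.29 in OVA and -2.31 in C4. None of the 10 genes was 1.5-fold higher or lower in CD4+ conventional T cells than in B cells in both libraries, against 27.6% of the 9671 genes with enough UMIs.

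Foxp3+ CD4+ T cells had more Hsp90aa1 than the CD4+ conventional T cells of their library, by 0.24 (interval 0.08 to 0.40) in OVA and 0.33 (0.17 to 0.49) in C4, the one gene with an interval above 0 in both. In OVA this rested on few cells: 1 of the 137 cells held 65 of the 389 UMIs, and without the 1% of cells with the most member UMIs the ratio was 0.03 (-0.14 to 0.20), while in C4 it was 0.31 (0.14 to 0.47). At 2000 UMIs a cell, Hsp90aa1 was found in 55.9% of Foxp3+ CD4+ and 58.8% of CD4+ conventional T cells in OVA and in 53.9% and 52.6% in C4. Dnaja1 was at -0.12 and -0.16 with intervals that included 0. In OVA alone Hspd1 was higher in them by 0.45 (0.18 to 0.71), and in C4 the value was 0.02 (-0.26 to 0.29). Of the Hspd1 UMIs in OVA, 20.4% came from 1 cell, and without the 1% of cells with the most member UMIs the ratio was 0.18 (-0.12 to 0.48).

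Cells with UMIs of both Mki67 and Top2a were taken as cycling. Cycling T cells had more of the cytosolic HSP90 genes, Hspa8 and Hspd1 than non-cycling T cells. In the 48 cycling T cells of OVA, Hsp90aa1 stood at 1343 CPM against 444 CPM in non-cycling T cells, Hsp90ab1 at 3451 against 1689, Hspa8 at 2320 against 1377 and Hspd1 at 487 against 176. In the 35 cycling T cells of C4 the values were 1142 against 390 CPM for Hsp90aa1, 3341 against 1586 for Hsp90ab1, 2096 against 1163 for Hspa8 and 392 against 169 for Hspd1. The log2 ratios were 1.60 and 1.55 for Hsp90aa1, 1.03 and 1.07 for Hsp90ab1, 0.75 and 0.85 for Hspa8 and 1.47 and 1.22 for Hspd1. These 4 of the 10 genes were at least 1.5-fold higher in both libraries, against 24.2% of the 9391 genes compared, so that many genes outside the family were higher in cycling T cells too. In CPM without ribosomal, mitochondrial and immunoglobulin genes Hspa8 was at 0.41 and 0.48, which left 3 of 10 members against 14.6% of genes. With every cell thinned to 2000 UMIs the 4 genes stayed past 1.5-fold in both libraries, out of 8 members with enough UMIs. The share of 7144 genes was 28.7%, but a count of 0 was set to 3 counts there. At this depth that alone can put a gene past 1.5-fold, so the share is no fair measure for the members. Ratios in OVA were smaller for Hsp90aa1 (0.87) and Hspd1 (0.80) than in C4 (1.36 and 1.16).

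Dnajb1 and Dnaja1, the J proteins among the members, did not follow. Dnajb1 was lower in cycling T cells in both libraries (-0.38, interval -0.69 to -0.08, and -0.44, interval -0.82 to -0.08), and Dnaja1 was at -0.16 (-0.27 to -0.04) in OVA and -0.02 (-0.16 to 0.12) in C4. Hspe1 was at 0.43 (0.33 to 0.52) and 0.19 (0.07 to 0.30), below its partner Hspd1 in both libraries; in C4 it turned to -0.18 in CPM without ribosomal, mitochondrial and immunoglobulin genes. Cycling T cells held far more RNA, with medians of 21370 and 26455 UMIs per cell against 5733 and 6750 in non-cycling T cells. With every cell thinned to 2000 UMIs, Hsp90aa1 was found in 68.8% and 82.9% of cycling T cells, against 58.8% and 52.6% of CD4+ conventional T cells. Cycling T cells also differed in make-up. Their Cd8b1 stood at 137 and 206 CPM, against 936 and 965 CPM in CD8+ T cells. Their Ctla4 stood at 284 and 343 CPM, against 59.7 and 41.1 CPM in CD4+ conventional T cells. The part of this make-up in the ratios was not tested.

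In cycling B cells (56 in OVA and 26 in C4) the ratios were smaller and differed between the libraries. Hsp90aa1 was higher than in non-cycling B cells by 1.004 (0.92 to 1.08) in OVA and by 0.43 (0.27 to 0.58) in C4, Hsp90ab1 by 0.73 and 0.35, and Hspa8 by 0.65 and 0.51. Hspd1 was higher by 0.97 (0.83 to 1.11) in OVA, but in C4 by 0.19 with an interval of -0.12 to 0.49. None of the 10 genes was 1.5-fold higher in both libraries, against 14.6% of 9389 genes. The cycling B cells of C4 were shallower than those of OVA, with medians of 14922 and 20114 UMIs, and 1 of the 26 held 1075 UMIs of Lyz2, a myeloid gene; without cells that had a Lyz2 UMI the ratios in C4 were 0.56 for Hspa8 and 0.11 for Hspd1. With every cell thinned to 2000 UMIs Hspd1 was at 0.05 (-0.65 to 0.67) in OVA and -0.07 (-1.28 to 0.91) in C4, from 21 and 8 UMIs in cycling cells. The OVA interval lay below the 0.97 from all UMIs, so the higher Hspd1 of OVA was not seen with cells of equal depth. The reason was not tested. At that depth Hspd1 was found in 25.0% of cycling and 26.5% of other B cells of OVA. Hsp90aa1 was then at 0.58 (0.28 to 0.87) in OVA and 0.63 (0.15 to 1.07) in C4, Hsp90ab1 at 0.54 and 0.39 and Hspa8 at 0.48 and 0.65.

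**Figure D2:**
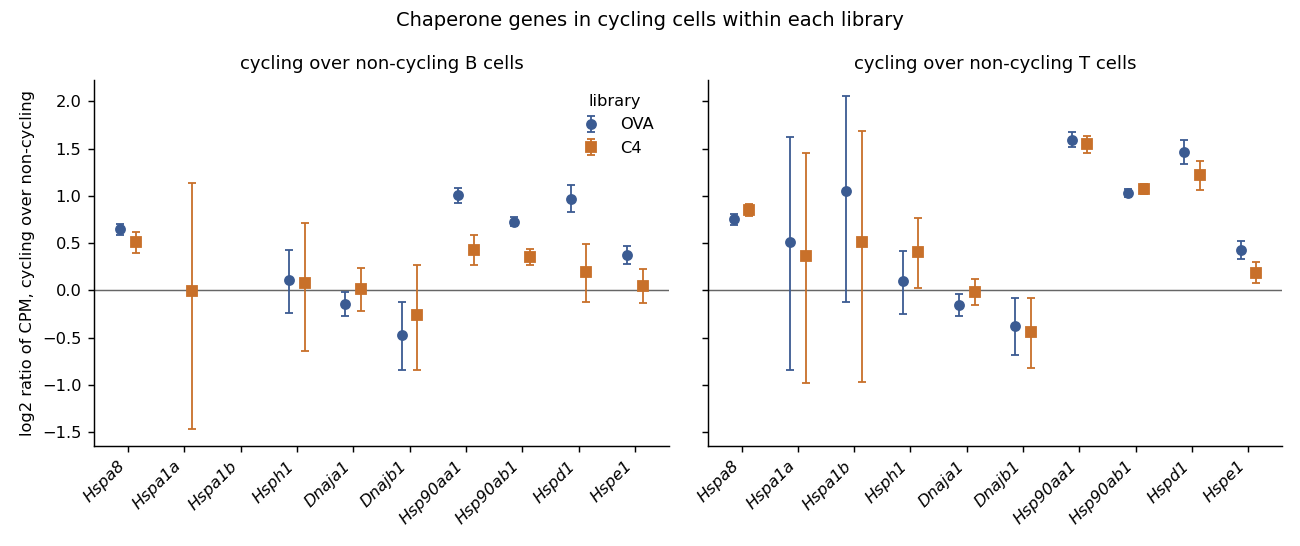
The log2 ratio of CPM in cycling over non-cycling B cells (left) and T cells (right) for each gene, with circles for OVA, squares for C4 and exact 95% intervals as bars; genes with 3 or fewer UMIs in a class are left out. Hsp90aa1, Hsp90ab1, Hspa8 and Hspd1 lie well above 0 in T cells of both libraries, and Dnaja1 and Dnajb1 lie at or below 0.

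B cells with a UMI of Myc, a factor that drives growth and ribosome production in activated lymphocytes, were compared with other B cells as a second view of activation. They made up 27.3% of B cells in OVA and 26.2% in C4. Hspd1 was higher in them by 0.55 in both libraries (intervals 0.46 to 0.64 and 0.45 to 0.65), at 245 against 167 CPM in OVA and 215 against 147 CPM in C4. Hsp90ab1 followed at 0.43 and 0.36, Hspe1 at 0.30 and 0.25, Hsph1 at 0.29 and 0.26 and Hspa8 at 0.22 and 0.21. Dnajb1 was at 0.01 and -0.13 with intervals that included 0. None of the 10 reached 1.5-fold in both libraries, and 0.714% of 9247 genes did. Cells with a Myc UMI were deeper, at medians of 5067 and 5455 UMIs against 4183 and 4460. With every cell thinned to 2000 UMIs, the median ratio of the 10 members was 0.31 in OVA and 0.16 in C4, against 0.27 and 0.20 with all UMIs. CD4+ conventional T cells gave a less even picture. Intervals lay above 0 in OVA and C4 for Hsp90aa1 (0.22 and 0.26), Hsp90ab1 (0.09 and 0.23) and Hspe1 (0.16 and 0.26). They included 0 in both for Hspa8 (0.04 and 0.07) and Hsph1 (-0.34 and 0.29). Hspd1 was at 0.15 (-0.13 to 0.42) in OVA and 0.42 (0.18 to 0.65) in C4.

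Between the libraries, the HSP70 machine genes Hsph1, Dnaja1 and Hspa8 were lower in C4 in each of the 4 lineages. Hspa8 in Foxp3+ CD4+ T cells was the least clear of these. Dnaja1, a J protein, had 470 CPM in B cells of OVA and 319 CPM in those of C4, 637 and 474 CPM in CD4+ conventional T cells, 585 and 446 CPM in CD8+ T cells and 586 and 426 CPM in Foxp3+ CD4+ T cells. The log2 ratios were -0.56 (-0.60 to -0.51), -0.42 (-0.50 to -0.35), -0.39 (-0.44 to -0.34) and -0.46 (-0.67 to -0.25). All 4 intervals lay below 0. Across lineages the libraries met only where B cells of OVA, at 470 CPM, lay beside CD4+ conventional T cells of C4, at 474 CPM.

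Hsph1, the HSP110 exchange factor, had the lowest ratio of the members in each lineage. It stood at 62.4 and 38.8 CPM in B cells of OVA and C4, at 62.8 and 43.0 CPM in CD4+ conventional T cells, at 70.9 and 52.4 CPM in CD8+ T cells and at 77.1 and 40.8 CPM in Foxp3+ CD4+ T cells. The log2 ratios were -0.68 (-0.81 to -0.56), -0.55 (-0.81 to -0.29), -0.44 (-0.59 to -0.28) and -0.92 (-1.59 to -0.26), the last from 55 and 32 UMIs. Every level in C4 lay below every level in OVA.

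Hspa8, the constitutive HSP70, had 1210 and 958 CPM in B cells, 1323 and 1081 CPM in CD4+ conventional T cells, 1429 and 1208 CPM in CD8+ T cells and 1339 and 1221 CPM in Foxp3+ CD4+ T cells. The log2 ratios were -0.34 (-0.36 to -0.31), -0.29 (-0.34 to -0.24), -0.24 (-0.28 to -0.21) and -0.13 (-0.26 to -0.003). In Foxp3+ CD4+ T cells of OVA 1 cell held 85 of the 956 UMIs of Hspa8. With every cell thinned to 2000 UMIs the ratio in this class was -0.056, so it is the least settled of these ratios. Dnajb1, the other J protein among the members, was at -0.16 (-0.27 to -0.06) in B cells. In CD4+ conventional T cells it was at -0.35 (-0.53 to -0.16) and in CD8+ T cells at -0.33 (-0.46 to -0.21). In Foxp3+ CD4+ T cells it was at -0.24, where the interval of -0.79 to 0.32 was too wide to give a direction.

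The HSP90 genes moved less. Hsp90aa1 had ratios of -0.13, -0.19, -0.20 and -0.10 in B, CD4+ conventional, CD8+ and Foxp3+ CD4+ T cells, the last with an interval of -0.31 to 0.10. Hsp90ab1, the most abundant member, had -0.07, -0.07, -0.09 and -0.18. In Foxp3+ CD4+ T cells of OVA 1 cell held 164 of the 1281 UMIs of Hsp90ab1. Without the 1% of cells with the most member UMIs its ratio in this class was -0.02. In each lineage Hsp90aa1 and Hsp90ab1 were closer to 0 than Dnaja1. Of the mitochondrial pair, Hspd1 was at -0.19 in B cells and -0.11 (-0.20 to -0.02) in CD8+ T cells. In Foxp3+ CD4+ T cells Hspd1 was at -0.25 (-0.61 to 0.10), with 29 of the 142 UMIs of OVA in 1 cell. Hspe1 was at -0.19 (-0.23 to -0.15), -0.03 and -0.28 (-0.49 to -0.08) in B, CD8+ and Foxp3+ CD4+ T cells. In Foxp3+ CD4+ T cells of OVA 1 cell held 58 of the 404 UMIs of Hspe1. With every cell thinned to 2000 UMIs its ratio there was 0.05, so its direction in this class is not settled. In CD4+ conventional T cells Hspd1 was above 0 at 0.17 (0.03 to 0.32), with 146 CPM in OVA and 165 CPM in C4, and Hspe1 was at 0.04 (-0.04 to 0.12); in cells of 4000 to 6000 UMIs Hspd1 was at -0.04 there, so its direction in this lineage is not settled.

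Hspa1a and Hspa1b went the other way in B cells. Hspa1a had 161 UMIs in OVA and 260 in C4, or 7.73 and 12.3 CPM, a log2 ratio of 0.67 (0.38 to 0.97), and Hspa1b 149 and 213 UMIs, a ratio of 0.50 (0.19 to 0.81). In CD4+ conventional T cells Hspa1a had 23 and 59 UMIs (1.33, interval 0.62 to 2.10) and Hspa1b 22 and 36 (0.68, -0.12 to 1.52). The 1% of cells with the most Hspa1a UMIs held 80.7% and 66.2% of them in B cells of OVA and C4. In CD4+ conventional T cells these shares were 69.6% and 59.3%. The intervals of Hspa1a leave out this spread between cells and are too narrow. In CD8+ T cells, with 33 and 30 UMIs of Hspa1a, the ratio was -0.35 with an interval of -1.12 to 0.41, so no direction could be given there. Among 5 genes checked for RNA of other cells (Lyz2, Hbb-bs, Epcam, Col1a1 and Pecam1), Lyz2 differed in the same classes, with 33.1 and 108 CPM in B cells and 4.61 and 77.9 CPM in CD4+ conventional T cells. The summed level of all 5 was 121 and 208 CPM in B cells and 81.0 and 159 CPM in CD4+ conventional T cells, and without Lyz2 it was 88.1 and 100.4 CPM and 76.4 and 81.4 CPM; Col1a1 was at 0 or near it in both. Pecam1 made up most of the sum without Lyz2, with 74.1 and 81.2 CPM in B cells. Hbb-bs was higher in C4 as well, at 0.67 and 4.65 CPM in B cells of OVA and C4. It stood at 1.47 and 3.49 CPM in CD4+ conventional T cells and at 0.48 and 4.72 CPM in CD8+ T cells. Few cells carried Lyz2: 62 of 3911 B cells of C4 had a UMI of it, and 838 of the 2275 UMIs were in 1 cell. These 62 cells held 6 of the 260 UMIs of Hspa1a. In CD4+ conventional T cells of C4, 9 of 763 cells had a Lyz2 UMI, and 342 of the 379 UMIs were in 1 cell. These 9 cells held 0 of the 59 UMIs of Hspa1a. In CD4+ conventional T cells of OVA 18 of the 22 Lyz2 UMIs were in 1 cell, so the Lyz2 levels there are not those of the class at large. In B and CD4+ conventional T cells without a Lyz2 UMI the Hspa1a ratios were 0.73 and 1.42. Leaving out these cells does not take away free RNA in the other droplets, and the part of such RNA in these ratios was not tested.

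**Figure D3:**
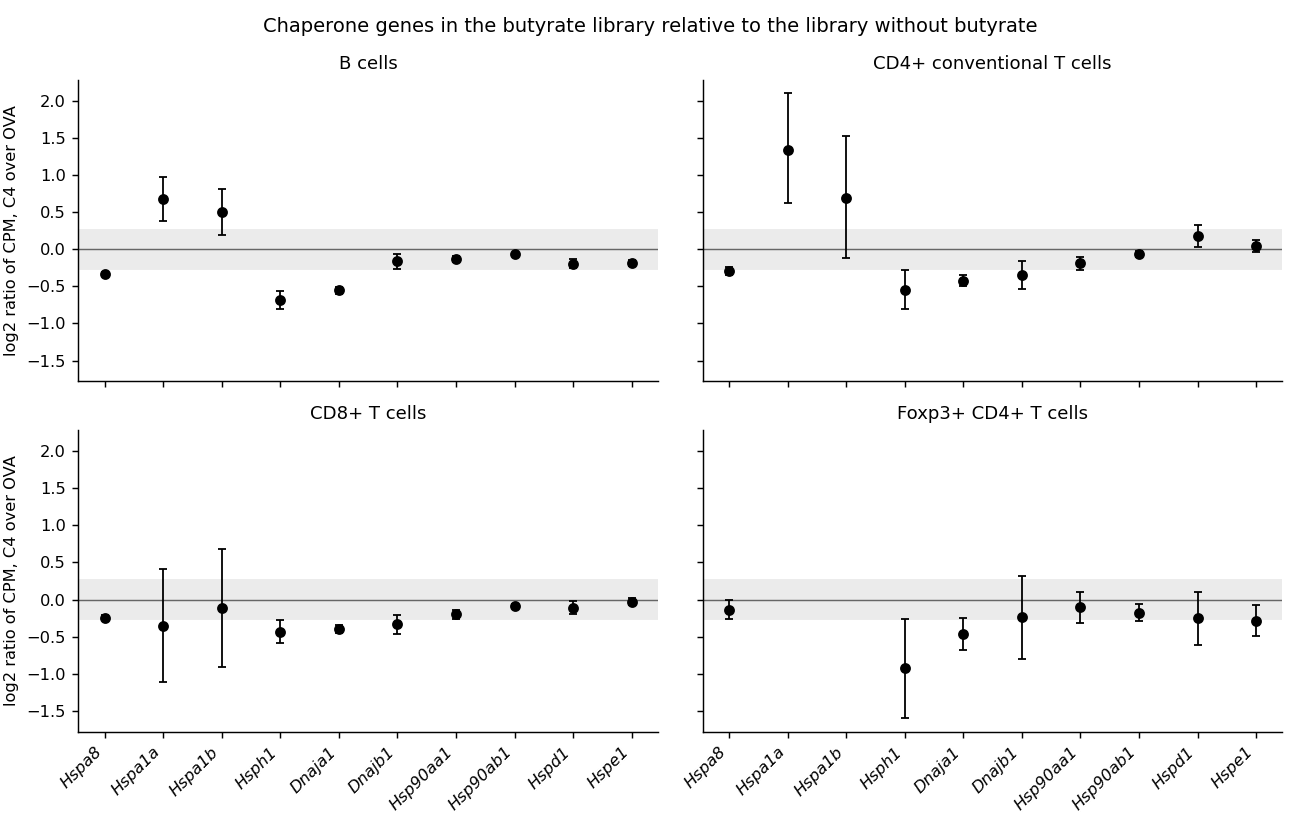
The log2 ratio of CPM, C4 over OVA, for each gene in 4 cell classes, with exact 95% intervals as bars and a grey band for differences under 1.2-fold; genes with 3 or fewer UMIs in a library are left out. Hsph1 and Dnaja1 lie below the band in every class, and Hspa1a lies above it in B and CD4+ conventional T cells.

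The members were set beside all genes with at least 50 UMIs in the class. In B cells, 3 of 10 members (Hsph1, Dnaja1 and Hspa8) were at least 1.2-fold lower in C4, and 7.04% of all genes were. The 2 members that were at least 1.2-fold higher, Hspa1a and Hspa1b, stood against 9.31% of all genes. In CD4+ conventional T cells 4 of 10 were lower (the same 3 genes and Dnajb1) against 13.2%, and 2 of 10 higher against 12.8%. In CD8+ T cells 4 of 10 were lower (Hsph1, Dnaja1, Dnajb1 and Hspa1a) against 8.86%, and 0 higher against 10.8%. The interval of Hspa1a there was -1.12 to 0.41, so that its direction was not settled. In Foxp3+ CD4+ T cells 3 of 8 were lower (Hsph1, Dnaja1 and Hspe1) against 19.3%, and 0 higher against 18.3%. Hspe1 turned to 0.05 there with every cell thinned to 2000 UMIs. These shares include many genes whose ratio is mostly counting error, so genes with at least 500 UMIs were also counted: 3 of 8 members were lower in B cells against 2.18%, 4 of 8 in CD4+ conventional T cells against 6.03% and 3 of 8 in CD8+ T cells against 3.79%. The median ratio of the 10 members was -0.18, -0.13, -0.22 and -0.21 in B, CD4+ conventional, CD8+ and Foxp3+ CD4+ T cells, where that of all genes was 0.04, 0.01, 0.02 and -0.01. Because the list was chosen with these ratios known, its counts describe the members and do not support their direction.

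The share of cells with a UMI was counted from the same UMIs, so it is a second description and no separate support. With every cell thinned to 2000 UMIs, Dnaja1 was found in 54.7% (53.1 to 56.2) of B cells of OVA and 43.6% (42.0 to 45.1) of those of C4. In CD4+ conventional T cells the shares were 68.3% and 55.8%, in CD8+ T cells 66.4% and 56.2% and in Foxp3+ CD4+ T cells 73.5% and 58.6%. Hsph1 was found in 10.8% and 7.07% of B cells, 11.7% and 6.84% of CD4+ conventional T cells, 12.9% and 9.77% of CD8+ T cells and 15.4% and 7.81% of Foxp3+ CD4+ T cells. Unthinned, 78.7% and 70.1% of B cells had a UMI of Dnaja1 and 22.8% and 15.7% one of Hsph1. Hspa1a was found in 0.956% and 1.65% of B cells and 0.465% and 1.97% of CD4+ conventional T cells; in CD8+ T cells the shares were 0.277% and 0.551%, and no class is known to lack it, so the part of free RNA in the droplets was not tested.

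**Figure D4:**
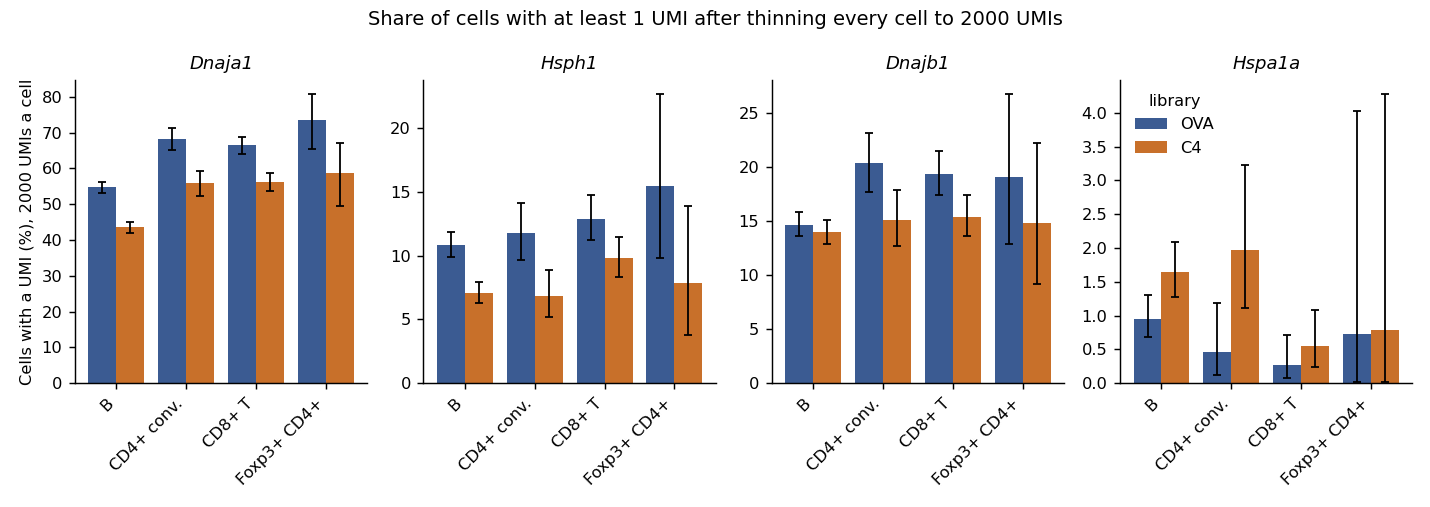
Percent of cells with at least 1 UMI of 4 genes after every cell was thinned to 2000 UMIs, in OVA and C4, with exact 95% binomial intervals as bars; each panel has its own axis from 0. Dnaja1 goes from 54.7% to 43.6% of B cells, and Hspa1a stays under 2% of cells in each of the 4 classes shown.

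Other properties also differed between the libraries, and their part in these ratios was not tested except where a value is given. C4 cells were deeper: among B cells the medians were 4608 and 4375 UMIs in C4 and OVA. In cells of 4000 to 6000 UMIs the Dnaja1 ratio in B cells was -0.52, and in CD8+ T cells with 2 to 4% mitochondrial UMIs it was -0.32. Interferon-response genes were lower in C4, with Isg15 at -0.92 in B cells and -1.41 in CD4+ conventional T cells and Irf7 at -0.72 and -0.999. Immediate early genes, which rise when tissue is dissociated, differed in direction by lineage: of those with enough UMIs, 5 of 14 were higher and 1 lower in B cells of C4 (Egr1 highest at 0.66, Ier3 lowest at -0.65), and 0 of 12 higher and 5 lower in CD4+ conventional T cells (Zfp36 highest at -0.03, Fosb lowest at -0.60), beside 9.31% of all genes higher and 7.04% lower in B cells and 12.8% and 13.2% in CD4+ conventional T cells.

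Wider families of the chaperone network were listed and compared by the same rule, beside 7.04% of all genes lower and 9.31% higher in B cells and 13.2% lower and 12.8% higher in CD4+ conventional T cells. Of 17 cochaperones of HSP70 and HSP90, 15 had enough UMIs in B cells and 3 of them, Ahsa2 (-0.41, the lowest), Stip1 (-0.33) and Chordc1 (-0.30), were lower in C4, with 0 higher and Stub1 highest at 0.21. Stip1 passes clients from HSP70 to HSP90, and Chordc1 and Ahsa2 bind HSP90. In CD4+ conventional T cells 3 of 15 were lower, with Fkbp5 lowest at -0.41 and Bag1 highest at 0.21. Of the other HSP70 genes 1 of 8 was lower in B cells and 3 of 7 in CD4+ conventional T cells, with Hspa4l, an HSP110 relative, lowest in both (-0.31 and -0.77), and Hyou1 (0.14) and Hspa9 (0.17) highest.

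The TRiC/CCT and prefoldin genes stayed under 1.2-fold in B and CD4+ conventional T cells. In CD8+ T cells 1 of 6 prefoldin genes was higher, Pfdn4 at 0.32, beside 10.8% of all genes. Of the 8 TRiC/CCT subunits 7 were found, and in B and CD4+ conventional T cells 0 of 7 were past 1.2-fold (medians 0.03 and -0.01, from -0.07 for Cct4 to 0.07 for Cct3 in B cells and from -0.04 for Cct7 to 0.08 for Cct3 in CD4+ conventional T cells), and so were 0 of 6 prefoldin subunits (medians 0.03 and 0.08, with Vbp1 at -0.13 and Pfdn2 at 0.06 in B cells, and Pfdn5 at -0.02 and Pfdn1 at 0.13 in CD4+ conventional T cells). The other HSP90 genes had ratios of 0.05 (Hsp90b1, of the endoplasmic reticulum) and 0.24 (Trap1, of mitochondria) in B cells and of -0.15 and 0.46 in CD4+ conventional T cells. Of other DnaJ A and B genes 2 of 10 were higher and 0 lower in B cells (Dnajb5 highest at 0.57, Dnajb2 lowest at -0.10), and 1 of 9 was higher and 3 lower in CD4+ conventional T cells (Dnajb14 at 0.56, Dnajb9 at -0.44). Hsf1, the factor of the heat shock response, was at 0.05 in B cells and 0.24 in CD4+ conventional T cells and Hsf2 at -0.14 and -0.28, and 2 of the 9 small heat shock protein genes were counted well enough in B cells (Hspb11 at 0.11 and Hspb6 at 0.10) and 1 in CD4+ conventional T cells (Hspb11 at 0.08).

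In cycling B cells, given as the mean log2 ratio over both libraries for genes with over 3 UMIs in every class, the TRiC/CCT subunits had a median of 0.58, from 0.43 for Cct3 to 1.04 for Tcp1, and the prefoldin subunits one of 0.54, from -0.65 for Pfdn5 to 1.07 for Pfdn4. The cochaperones had a median of 0.25, from -0.60 for Bag5 to 0.80 for Fkbp5, and the other HSP70 genes one of 0.30, from -0.28 for Hspa4l to 1.63 for Hspa2. The other DnaJ genes, 8 of 11 counted, had a median of -0.01, from -1.01 for Dnajb4 to 0.76 for Dnajb12. Hsp90b1 was at 0.46 and Trap1 at 0.12, Hsf1 at -0.12 and Hspb11 at -0.72. The immediate early genes had a median of -1.04, from -1.53 for Junb to -0.36 for Dusp1. In cycling T cells the medians were 0.81 for TRiC/CCT, 0.91 for prefoldin, 0.66 for cochaperones and 0.98 for other HSP70 genes. That of all genes compared was 0.12. Other DnaJ genes had a median of -0.53 there, from -1.68 for Dnajb4 to 1.19 for Dnajb11. Hsp90b1 was at 1.54, Trap1 at 0.88, Hsf1 at -0.91, Hsf2 at -0.35 and Hspb11 at -0.14. For the immediate early genes the median was -0.63.

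The genes whose levels were most like those of a member over 10 points (5 non-cycling classes in 2 libraries, Pearson r of log2 of CPM + 10, among genes reaching 50 CPM) were found for 3 members. For Hspa8 they were Xaf1 (r = 0.94), Bst2 (0.92) and Rpl36 (0.91), for Hspd1 Mrpl34 (0.89), Rsrc1 (0.86) and Sms (0.83), and for Hspa1a Tram1 (0.94), Lyz2 (0.94) and Kdm7a (0.90). Among the members themselves, Hspa8 went with Dnaja1 (0.88) and Hsph1 (0.82) and against Hspa1a (-0.77), and Hspa1a went with Hspa1b (0.90). The points share libraries and depth, so these values are a description. Most of the Lyz2 UMIs in CD4+ conventional T cells of each library were in 1 cell, so its likeness to Hspa1a rests on few cells.

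In small classes the counts allowed few statements. Plasma cells (42 in OVA and 12 in C4) had 174 and 167 CPM of Dnaja1, the lowest of any class, while Hsp90ab1 stood at 819 and 1945 CPM (log2 1.25, 1.11 to 1.39), Hsp90aa1 at 366 and 686 CPM (0.91, 0.68 to 1.13), Hspe1 at 256 and 428 CPM (0.74, 0.46 to 1.02) and Hspa8 at 682 and 933 CPM (0.45, 0.27 to 0.63), all higher in C4, opposite to the 4 lineages except for Hspe1 in CD4+ conventional T cells. Their Dnajb1 was at -1.17 (-2.10 to -0.34), and their Hspa1a was 40 UMIs in OVA (36.6 CPM, interval 26.1 to 49.8) and 0 UMIs in C4, which allows up to 7.25 CPM. The plasma cells of the libraries also differed in make-up, with 5309 CPM of Mzb1 in OVA and 3119 CPM in C4. Ms4a1 stood at 63.1 and 389 CPM in them and Pclaf at 274 and 425 CPM. Immunoglobulin UMIs count in the totals behind these CPM values, and the part of both in the plasma-cell values was not tested. Cells with Tyrobp, Fcer1g and Cst3 (44 and 37) had 1859 and 1336 CPM of Hspa8, and T cells without a UMI of Cd4, Cd8a or Foxp3 (962 and 757) had ratios of -0.42 for Dnaja1, -0.32 for Hsph1 and -0.24 for Hspa8. Among Ncr1-positive cells there were 12 in OVA and 26 in C4, with 43 and 84 UMIs of Dnaja1.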

How the data were processed

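The authors made UMI counts per gene and cell from 2 Single Cell 3′ v3 libraries with Cell Ranger 6.0.1 on mm10, per the labels, and deposited these counts without normalization. From them, 186 cells of OVA and 327 of C4 were dropped for a mitochondrial share above 10% or fewer than 200 genes, and then 721 and 592 as likely doublets, ranked by Scrublet in scanpy 1.11.5 and taken at a rate of 0.8% for every 1000 cells. Classes came from UMIs of marker genes. UMIs were summed by class and library and given as CPM. Ratios have exact conditional binomial, levels exact Poisson and shares exact binomial (Clopper-Pearson) 95% intervals, and a count of 0 allows 3 counts; these cover counting error only. Thinning to 2000 UMIs left out 101 and 57 kept cells. With 1 library per condition no test was made, and the share of all genes past the same fold stands beside each count of members in the main setting. The script for the ratios was first tested on simulated data. The members and the 9 companion lists were chosen with earlier results of these data known. All members are named, and of each list the highest and lowest gene; Stip1 and Chordc1 were named after their values were seen. The alternatives were 15 settings, 3 of them chosen after seeing the data, and another restriction of the cells, also chosen later, is not reported here. The scripts ran under Python 3.11.15 with scipy 1.17.1, pandas 2.3.3 and numpy 2.4.6.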

Additional observations from a re-analysis of the deposited data

Results flagged for a closer look

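The cells removed by the filters on mitochondrial UMIs and genes (186 in OVA and 327 in C4) enter no comparison above, and members were counted in them as well. Hspa8 had 169 and 193 UMIs there, or 697 and 478 CPM, a log2 ratio of C4 over OVA of -0.54 (interval -0.85 to -0.24), the same direction as in kept cells. Hspd1 had 23 and 96 UMIs, or 94.9 and 238 CPM, a ratio of 1.33 (0.66 to 2.05), which was not seen in kept B cells (-0.19). Dnaja1, with 67 and 116 UMIs, was at 0.06 (-0.39 to 0.51) in these cells. Which cell types they hold in each library was not tested.

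Hspa1a was past 1.2-fold in opposite directions between classes, at 0.67 in B cells and 1.33 in CD4+ conventional T cells and at -0.35 in CD8+ T cells. The interval in CD8+ T cells included 0, and the difference between the classes was not tested.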

How the results depend on the processing

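Dnaja1, Hsph1, Hspa8 and Dnajb1 were below 0 for C4 over OVA in all 4 lineages under each alternative that gave a value, with Dnaja1 from -0.59 to -0.52 in B cells and from -0.52 to -0.09 in Foxp3+ CD4+ T cells. In all, 1309 values of 101 results were recomputed over 15 settings; 1141 stayed within counting error or 1.5 times the count, 160 moved and 8 changed the sign of a ratio that had been past 1.2-fold. Counting ratios of any size, 65 had the opposite sign to the value reported. The cause of these shifts was not tested. Classes left with under 10 cells gave no value. Counts of members in this section stand without the share of all genes, so they are not set against other genes. No paired analysis was possible because each condition is 1 library, and no library could be left out.

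With at most 5% mitochondrial UMIs, the median of CD4+ conventional T over B cells in OVA was -0.29. With lineage from at least 2 UMIs, 1 member was higher in C4 in CD4+ conventional T cells. In CPM without ribosomal, mitochondrial and immunoglobulin genes, the medians of CD8+ T over B cells were 0.28 in OVA and 0.38 in C4, and Hspa1a in cycling over other T cells of C4 was -0.000852. A pseudocount of 10 CPM left 1 member higher in C4 in B and 1 in CD4+ conventional T cells, and at least 500 UMIs left 0 in both. Thinning to 2000 UMIs gave a median of -0.23 and 0 higher members in CD4+ conventional T cells, Hspa1a at 0.99 in CD8+ T cells and Hspe1 at 0.0512 in Foxp3+ CD4+ T cells. Taking the mean over cells gave a median of 0.044 for cycling T cells of OVA, with Hspa1a at -0.37 and Hspa1b at -0.044. With cycling cells taken from either gene, Hspa1a was at -0.17 in cycling T cells of C4.

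Of the settings chosen after seeing the data, cells with 2 to 4% mitochondrial UMIs gave 6 lower members in Foxp3+ CD4+ T cells, with no share of all genes beside them. They also gave a median of -0.38 for CD4+ conventional T over B cells in OVA, and medians of -0.093 and 0.040 for CD8+ T over B cells in OVA and C4. Cells with 4000 to 6000 UMIs gave a median of -0.28 and 0 higher members in CD4+ conventional T cells, Hspa1a at 0.40 in CD8+ T cells, 0 lower members and Hspe1 at 0.078 in Foxp3+ CD4+ T cells, a median of 0.013 for CD8+ T over B cells in C4 and one of -0.068 for CD4+ conventional T cells of C4 with Myc over those without. Cells without a Lyz2 UMI changed no sign of a called value.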
